A study of Schizosaccharomyces pombe with 2 samples.

Results

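The wtf genes wtf9 and wtf10 lie on the left arm of chromosome III of the fission yeast Schizosaccharomyces pombe, whose cells are normally haploid, at the borders of a stretch that gained DNA in sap1-1 revertants. They are 2 of the 5123 protein-coding genes and pseudogenes that hold a probe, and were selected on the measured log2 ratios, as the genes at which the called gain ended. The probes within 3 kb of either gene were taken, 26 at wtf9 and 27 at wtf10, or 53 of the 41551 probes of each array that were not controls. Comparative genomic hybridization of genomic DNA was done on 2 Agilent tiling arrays, where neighbouring probes started 300 bp apart. On each array, Cy5-labelled DNA of a strain of background 972h and genotype sap1-1, named a revertant, was hybridised against Cy3-labelled DNA of a wild-type strain of the same background. Both DNAs had been cut with AluI and RsaI. The 2 arrays form 1 group, replicate 1 and replicate 2 as numbered in the labels, which leave unsaid whether these came from separate isolates. The sap1-1 allele is a mutant form of sap1, a gene for a DNA-binding protein that cells need to live, and the strain before reversion was not analysed here. All values are log2 ratios of revertant over wild type, centred on the array median, so that 0 is the ratio of a typical probe and 1 is a doubling.

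The wtf genes are a family found in fission yeast, many of which kill spores that do not inherit them: a driver makes a poison and an antidote from overlapping transcripts, and related genes make only an antidote. Members often sit next to long terminal repeats (LTRs), the ends of Tf retrotransposons. RefSeq annotates wtf9 (SPCC970.11C, 487167 to 489016 of chromosome III in ASM294v3, plus strand) and wtf10 (SPCC1183.10, 615387 to 617622, plus strand) as antidote-like meiotic drive suppressors. Their coding sequences have 1002 bp in 6 exons and 777 bp in 5 exons. An LTR of 351 bp on the minus strand ends 241 bp before wtf9, and LTRs of 325 and 323 bp lie behind it at distances of 55 and 358 bp. An LTR of 349 bp on the plus strand ends 128 bp before wtf10.

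The first part of both genes is nearly the same sequence, in the same orientation, and the coding exons below show how alike it is. Bases that differ between the genes are in capitals. Sequences are from RefSeq (ASM294v3, plus strand), for wtf9 from chrIII:487167-487305 and chrIII:487473-487718 and for wtf10 from chrIII:615605-615743 and chrIII:615913-616158.
wtf9 coding exon 1: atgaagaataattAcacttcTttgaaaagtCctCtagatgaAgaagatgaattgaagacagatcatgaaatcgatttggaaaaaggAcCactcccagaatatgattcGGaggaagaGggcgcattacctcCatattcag
wtf10 coding exon 1: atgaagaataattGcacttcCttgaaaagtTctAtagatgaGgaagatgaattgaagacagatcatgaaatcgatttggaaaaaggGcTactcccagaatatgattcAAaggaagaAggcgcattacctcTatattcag
wtf9 coding exon 2: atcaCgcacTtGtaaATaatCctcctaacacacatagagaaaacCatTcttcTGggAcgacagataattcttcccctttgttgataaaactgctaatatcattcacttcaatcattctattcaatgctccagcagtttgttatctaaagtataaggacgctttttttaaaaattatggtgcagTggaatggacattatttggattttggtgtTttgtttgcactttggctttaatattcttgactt
wtf10 coding exon 2: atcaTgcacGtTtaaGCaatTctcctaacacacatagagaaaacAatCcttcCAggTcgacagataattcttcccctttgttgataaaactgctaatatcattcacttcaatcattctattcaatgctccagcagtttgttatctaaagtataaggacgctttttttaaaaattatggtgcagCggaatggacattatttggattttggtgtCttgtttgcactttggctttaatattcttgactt

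Exon 1 differed at 11 of 139 bases and exon 2 at 13 of 246. The run of 126 bases in exon 2 between the differing bases is the longest identical stretch of the pair. With 3 kb added on each side, the best local alignment covered 959 bp at 89.2% identity, from 486880 to 487831 at wtf9 and from 615331 to 616271 at wtf10. It therefore held the first part of both genes and the bases just before them, and not their last parts. The pseudogene wtf8 (SPCC306.10, 427445 to 428763, plus strand) carried the same block, and aligned with wtf10 over 944 bp at 93.5% identity, from 427170 to 428110. The likeness is not particular to wtf9 and wtf10. Among the 28 pairs of the 8 wtf genes in the first 1 Mb of the chromosome, their pair ranked 5 in identity (93.1% over 668 bp within the genes), and the pair of wtf5 and wtf9 ranked 1 (96.6% over 700 bp).

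Probe names of the array carry a suffix m or f at some positions, whose meaning was not given in the sources used here. In that first 1 Mb, 77.9% of the 208 probes with the suffix lay on a stretch of ASM294v3 that holds a repeated 30-mer, against 0.75% of the 3053 probes without it, so that it follows repeated sequence. These probes are called repeat-marked here. A repeat-marked probe can bind DNA of several loci, and its ratio is not that of one place. At wtf9 all 6 probes inside the gene and 3 beside it were repeat-marked, from 486600 to 489300, and at wtf10 5 probes were, from 615300 to 616500.

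At wtf9 the revertants differed on the left, and on the right their medians were nearly equal. To the left, the median ratio of 10 probes was -0.07 in replicate 1 and 0.75 in replicate 2. The median of the 10 probes to the right was 1.04 in replicate 1 and 1.03 in replicate 2 (mean 1.04 ± 0.0072, SD, n = 2). In replicate 1 the DNA thus went from the level of the wild type to about a doubling across the gene, while in replicate 2 it was already high on the left. The right flank exceeded the left by 1.12 in replicate 1 and by 0.29 in replicate 2. In replicate 2 this difference turned to -0.04 with flanks of 1.5 kb and to -0.05 with 6 kb, and was 0.02 after loess and 0.03 with the authors' table. Since these ratios chose the genes, such differences are descriptions, and 2 arrays could not give an exact sign permutation p below 0.5 (two-sided). For replicate 2 the name of an edge gene does not apply to wtf9.

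**Figure D1:**
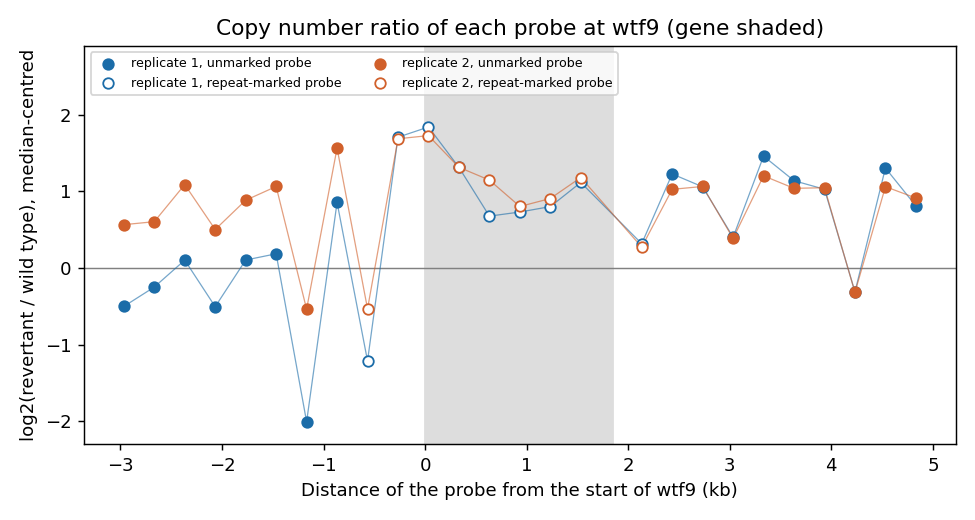
Log2 ratio of revertant over wild type (y axis) of the 26 probes at wtf9 against the distance of the probe from the start of the gene in kb (x axis), one line per replicate, with the gene shaded and repeat-marked probes as open circles. To the left of the gene replicate 2 lies above replicate 1 at 9 of 10 probes, and to the right of it the replicates differ by -0.26 to 0.10, while inside the gene the probe at 487800 is higher in replicate 2 by 0.47.

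Single probes scattered widely along the chromosome, and less so between the arrays. The probe at 486000 had -2.01 and -0.54, the next one, at 486300, had 0.86 and 1.57, and the probe at 491400, inside the gained stretch, had -0.31 and -0.32 (replicate 1 and replicate 2). A single ratio near 0 or near 1 therefore says little of copy number. The SD over 2832 unmarked probes, from 50 kb to 1 Mb of chromosome III and outside the stretch from wtf8 to wtf9, was 0.71 in replicate 1 and 0.70 in replicate 2. Their difference, replicate 2 minus replicate 1, had an SD of 0.15 and the middle 95% of it lay between -0.33 and 0.24.

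This difference drops at wtf9. All 8 unmarked probes to the left were higher in replicate 2, by 0.71 to 1.47 (median 0.93), and the 9 unmarked probes to the right differed by -0.26 to 0.10 (median -0.02). The 2 ranges did not overlap. By channel, the left unmarked probes differed between the arrays by a median of 0.84 in the revertant signal and by -0.02 in the wild-type signal, each relative to all probes. The revertant DNA was in Cy5 on both arrays, so that a dye bias shared by the arrays drops out of these differences. Other differences in labelling between the arrays were not tested. A single split of the difference within 20 kb of the gene, fitted to unmarked probes, fell between 486300 and 489600 and took up 93.9% of the variance, with means of 0.97 before it and -0.06 after it. The block of repeat-marked probes fills this interval of 3300 bp, which contains wtf9 and LTRs on both sides. With all probes the split fell between 486600 and 486900.

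Inside wtf9 the repeat-marked probes gave no clean step. The probe at 486600 differed by 0.68. The probes at 486900, 487200 and 487500 were saturated in the wild-type channel on both arrays. The first 2 were also saturated in the revertant channel on 1 array, so that their differences say nothing of a step. At 487500 the revertant channel was not saturated, and the difference was 0.001. The probe at 487800, farther to the right, was again higher in replicate 2, with 0.68 in replicate 1 and 1.15 in replicate 2, a difference of 0.47. The remaining 3 probes of the gene differed by 0.06 to 0.11. In the stretch that replicate 2 alone had gained (429000 to 486600), 191 unmarked probes differed by 0.63 to 1.47, and the 2 repeat-marked probes there differed by 0.60 and 0.68. How much of a change at one locus a repeat-marked probe inside wtf9 can show was not tested. The ratios of replicate 1 itself, over unmarked probes, split best between 486000 and 486300, just left of that interval, which took up 36.6% of their variance. With all probes the ratios of replicate 1 split best between 486600 and 486900, which took up 37.2%, but the probe at 486900 was saturated. Over unmarked probes, replicate 1's own ratios thus split at a jump that both arrays have. From 486000 to 486300 the ratio rose from -2.01 to 0.86 in replicate 1 and from -0.54 to 1.57 in replicate 2. At 486300 replicate 2 was still higher by 0.71, so that this split does not place the edge of replicate 1. The difference over unmarked probes split within the 3300 bp around the gene. The probes inside the gene did not narrow the edge of replicate 1.

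**Figure D2:**
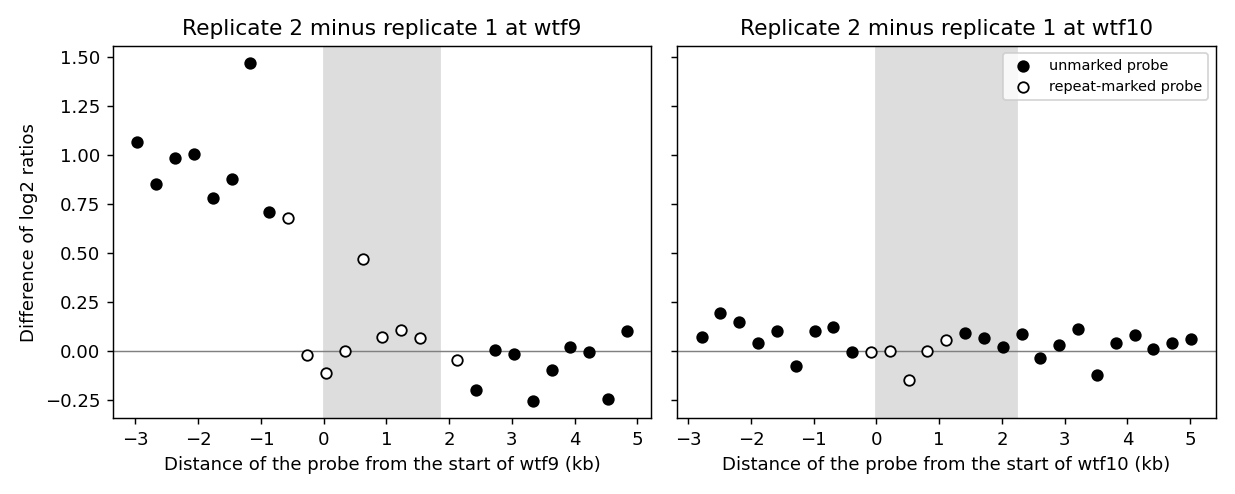
Difference between the replicates, replicate 2 minus replicate 1, of the log2 ratio of each probe (y axis) against its distance from the start of wtf9 (left panel) or wtf10 (right panel) in kb, with genes shaded and repeat-marked probes open. Unmarked probes left of wtf9 lie between 0.71 and 1.47, those right of it between -0.26 and 0.10, and all probes at wtf10 between -0.15 and 0.20.

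At wtf10 both revertants changed in the same way. To the left, the median of 10 probes was 1.15 in replicate 1 and 1.19 in replicate 2 (1.17 ± 0.02, SD, n = 2), and to the right, over 10 probes, it was -0.23 and -0.19 (-0.21 ± 0.03, SD, n = 2). The left flank exceeded the right by 1.38 ± 0.0032 (SD, n = 2), with 1.39 in replicate 1 and 1.38 in replicate 2. This SD is the spread between arrays that share every probe, and does not hold the scatter between probes. With flanks of 1.5 kb the same difference was 2.27, and after loess within arrays it was 0.95. A single split of the unmarked probes within 20 kb gave a smaller step, with means of 0.82 before it and -0.14 after it in replicate 1. In replicate 2 these means were 0.81 and -0.15. The flanks overlapped: probes to the left ranged from -0.06 to 1.59 in replicate 1 and from 0.14 to 1.66 in replicate 2, and those to the right from -1.59 to 0.84 and from -1.71 to 0.88.

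Inside wtf10 the ratio was high at the first 2 probes and lower after them. The probes at 615600 and 615900 had 1.66 and 1.90 in replicate 1 and 1.66 and 1.75 in replicate 2. Both are repeat-marked and saturated in the wild-type channel on both arrays, so that they do not place the fall inside the gene. The next 2, at 616200 and 616500, also repeat-marked, had 0.20 and 0.44 in replicate 1 and 0.20 and 0.49 in replicate 2. The last 3 probes of the gene, which are unmarked, had 0.09, 0.13 and -0.18 in replicate 1 and 0.18, 0.19 and -0.16 in replicate 2. The last part of wtf10, from 616800 on, was thus between the medians of the right and the left flank on both arrays, and nearer to the right one. In both replicates the unmarked probes put the best split between 615000 and 616800. That gap of 1800 bp begins before the start of the gene and holds the sequence block shared with wtf9. With all probes the split fell between 615900 and 616200 in replicate 1 and between 616500 and 616800 in replicate 2. The probes of the replicates differed there by no more than 0.15.

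**Figure D3:**
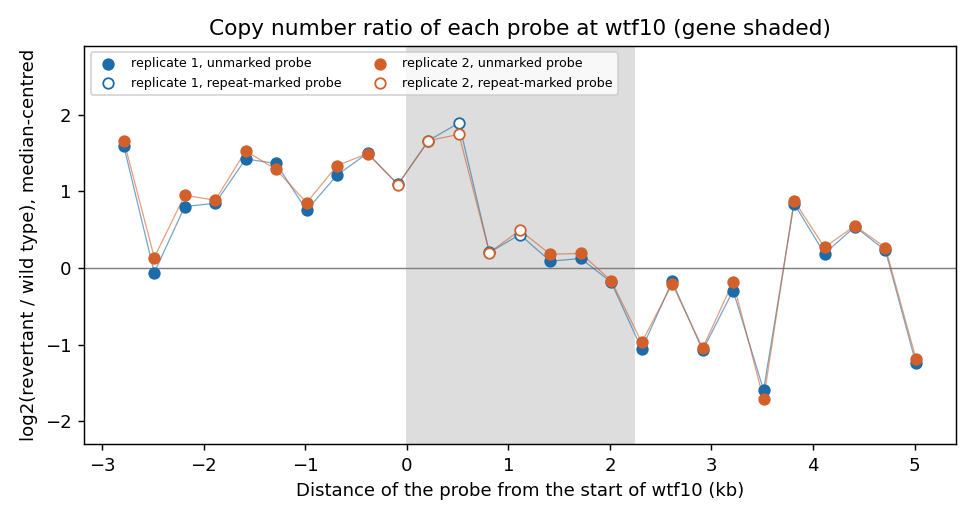
Log2 ratio of revertant over wild type (y axis) of the 27 probes at wtf10 against the distance of the probe from the start of the gene in kb (x axis), drawn as for wtf9. Both replicates run together from a left flank with medians of 1.15 and 1.19 to a right flank with medians of -0.23 and -0.19. The ratios fall after the second probe inside the gene, and the first 2 probes there are repeat-marked and saturated.

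Probes on either side of the 3 kb limit of the flanks were often unlike. At wtf9 the probe just inside it on the left (484200) had -0.50 and 0.57 and the one just outside (483900) had 0.51 and 1.57, and on the right those at 492000 and 492300 had 0.81 and 0.91, and 0.57 and 0.69. At wtf10 the probes at 612600 (inside) and 612300 (outside) had 1.59 and 1.66, and 1.27 and 1.15. On its right, those at 620400 (inside) and 620700 (outside) had -1.24 and -1.18, and -0.03 and 0.03.

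The high values inside wtf9 and in the first part of wtf10 occurred in other wtf genes too. The medians inside the gene were 0.96 and 1.17 at wtf9 (6 probes), against 0.80 and 1.01 at wtf3 (4 probes), 0.93 and 0.85 at wtf4 (3 probes, of which 1 had -1.32 and -1.17) and 0.79 and 0.73 at wtf6 (2 probes), none of which lies in the gained stretch. With that probe the mean of wtf4 was 0.25 and 0.27, well below its median. The 2 probes of wtf6 had 0.17 and 1.41 in replicate 1 and 0.11 and 1.345 in replicate 2, and 1 of them was saturated. The genes wtf3, wtf4 and wtf6 were covered by repeat-marked probes only, as was wtf9. At wtf5, outside the gain and the most like wtf9 (96.6% over 700 bp), the medians were lower, 0.58 and 0.55 over 4 probes. Its 3 repeat-marked probes had medians of 0.69 and 0.71. At wtf7, whose 7 probes are unmarked and which is the least like wtf9 in sequence (73.8% over 107 bp), the medians were -0.01 and -0.12. The own probes of wtf9 therefore do not place it inside or outside the gain of replicate 1.

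**Figure D4:**
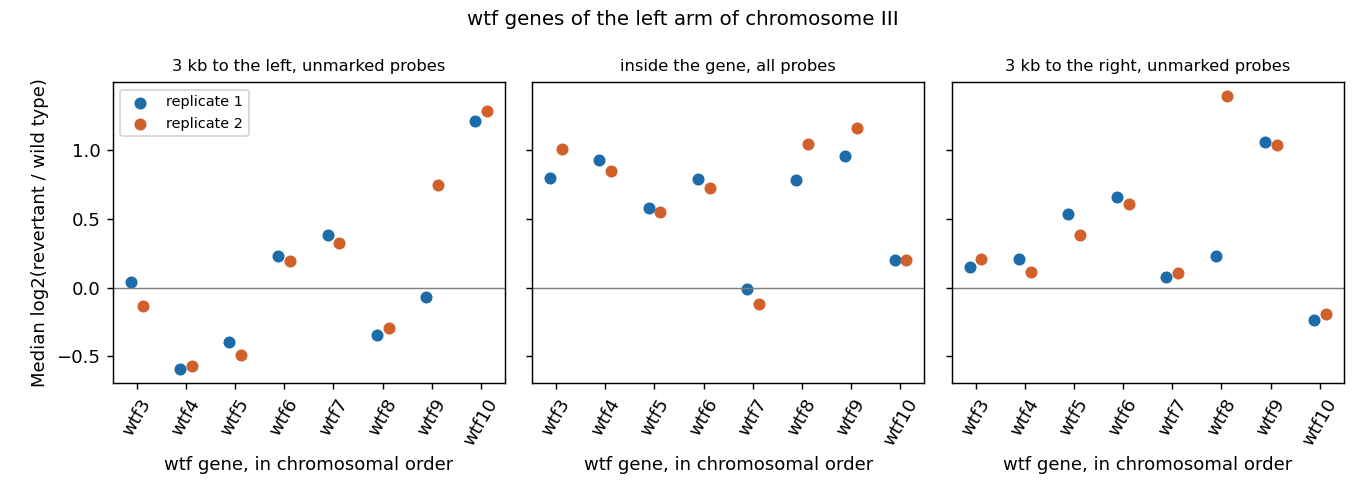
Median log2 ratio (y axis) of each of the 8 wtf genes, in chromosomal order (x axis), for unmarked probes within 3 kb to the left, all probes inside and unmarked probes within 3 kb to the right, one point per replicate. Inside the genes wtf3, wtf4 and wtf6 lie nearer to wtf9 than wtf5 and wtf7 do. The median of wtf6 is that of 2 unlike probes. In the right panel wtf9 is high in both replicates and wtf8 in replicate 2 only.

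Brightness moved with these values. Away from the gain and the chromosome ends, 1030 repeat-marked probes of the 3 chromosomes had a median of 0.18 and 0.14 in replicate 1 and replicate 2, the 167 of them that were saturated in a channel had 0.73 and 0.73, and 39018 unmarked probes had -0.02 and -0.02. At wtf9 the wild-type channel was saturated on both arrays at 486900, 487200 and 487500, which have ratios of 1.31 to 1.84. At wtf10 it was saturated on both arrays at 615600 and 615900. The mean over all own probes of wtf10 was 0.61 ± 0.0081 (SD, n = 2) and 0.16 without the saturated ones, and that of wtf9 was 1.13 ± 0.07 (SD, n = 2) and 0.92. After loess within arrays the mean was 0.33 at wtf10 and 0.56 at wtf9. The part of saturation and of repeated loci in the ratios of wtf9 and wtf10 was not tested.

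The third border of the gain had the same kind of gene. At wtf8 the unmarked probes to the left had medians of -0.34 in replicate 1 and -0.30 in replicate 2 (9 probes), and those to the right 0.23 and 1.40 (10 probes), higher in replicate 2 at 10 of 10. Replicate 1 thus had a left border at or near wtf9, and both replicates a right border at or near wtf10. The left border of replicate 2 was read from replicate 2 minus replicate 1, with unmarked medians of 0.06 left of wtf8 and 1.04 right. No split was fitted there. The 3 genes share the block described above on the plus strand. Within the genes, wtf8 and wtf9 aligned over 1356 bp at 93.1% identity, rank 1 in aligned length among the 28 pairs. With 3 kb added on each side they aligned over 1837 bp, with an identical run of 360 bp. Likeness to wtf10 was not particular to the border genes. Within the genes, wtf5, also on the plus strand, aligned with wtf10 over 1300 bp at 88.3% identity. The longest identical run with wtf10 was 345 bp at wtf3, a gene on the minus strand, against 126 bp at wtf9 and 73 bp at wtf8. The unmarked flanks of wtf3, wtf4, wtf5, wtf6 and wtf7 differed between replicates by medians of -0.10 to 0.06 on each side, with 1 probe only to the right of wtf3, which gave the 0.06, and to the left of wtf4.

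Neighbouring genes followed their side. To the left of wtf9, bis1, annotated as a splicing factor, had means over 5 probes of 0.01 in replicate 1 and 0.97 in replicate 2, while cif1 (calnexin independence factor) had -0.56 and 0.48 over 4. To the right, brl2, a subunit of the ubiquitin ligase that modifies histone H2B, had 0.74 and 0.73 over 11 probes. The gene sec8, an exocyst subunit, had 0.86 and 0.81 over 20. It overlaps brl2, so that the values of brl2 and sec8 share probes. Left of wtf10, rpl101, a large-subunit ribosomal protein gene, had 0.85 and 0.81 over 2 probes and pmp31 had 0.75 and 0.88 over 4. Right of wtf10, msy1, a mechanosensitive ion channel gene, had -0.15 and -0.20 over 15 probes. All 7 genes were covered by unmarked probes alone. The genes nearest to wtf9 in the plane of the 2 replicate means were psg2 (1.06 and 1.14, distance 0.04), SPCC1183.02 (1.07 and 1.09, distance 0.09) and mob2 (1.18 and 1.22, distance 0.10). Those nearest to wtf10 were sap1 (0.64 and 0.61, distance 0.03), asp1 (0.58 and 0.60, distance 0.03) and wtf5 (0.59 and 0.58, distance 0.04). With 2 arrays such likeness is a description, and wtf5 lies outside the gain. The mean of wtf10 behind these distances was 0.61, and 0.16 without its saturated probes, so that its likeness to these genes rests on saturated probes.

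Across genes, limma's test with Benjamini-Hochberg adjustment at 0.05 was run on 355 genes of the first 1 Mb of this chromosome and called 32.4% of them higher and 27.3% lower. Of the 7 wtf genes with at least 3 probes, 6 were higher, wtf9 and wtf10 among them, and wtf7 was lower. The call of wtf7 was lost after loess, with normexp, with centring on chromosomes I and II, with the authors' table and with medians of probes, and its mean was above 0 under the first 2. That of wtf4 was lost after loess (limma, adjusted p = 0.122). The median of the gene means was 0.61 over these 7 and 0.05 over all 355. Since 59.7% of all genes passed in either direction, and since the ratios chose wtf9 and wtf10, nothing is read from these calls.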

How the data were processed

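DNA of 2 sap1-1 revertants and of the wild type was compared on 2 arrays of 1 slide, without dye swaps. Per the file headers, the authors' Agilent Feature Extraction 10.10.1.1 gave the deposited intensities, background-subtracted and scaled by a linear factor per channel. The deposited log10 ratio equalled that of these intensities within 0.001, with 0 exceptions, and was used only for this check. The deposited flags mark outlier, saturated and dim spots. The authors' deposited log2 table equalled a running mean over 5 probes of the uncentred log2 ratio, red over green (r = 1), which settled scale and direction.

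Ratios were centred on each array's median (0.09 and 0.08 before), outlier spots were left out (10 and 3) and saturated ones kept. Precision is limited by the number of arrays. The build behind the probe names was not given in the sources used here. Around both genes the suffixes matched repeats of ASM294v3 best 180 bp to the right of the named starts, so that positions may be off by about that much. No position was converted.

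Genes (mean of own probes, at least 3) were fitted with limma 3.58.1 in R 4.3.3, and the fit was tested on simulated data. Python 3.11.15, numpy 2.4.6, pandas 2.3.3, biopython 1.88 (local alignments) and matplotlib 3.10.9 were used. The text names wtf9, wtf10, the other wtf genes of the first 1 Mb, annotated genes and LTRs overlapping the flanks, and for each gene the 3 genes nearest in the replicate means. Members and lists were chosen with earlier results of these data known. Normexp was run on median signals, not on mean signals as planned. P-values measure only the spread between these 2 arrays, which may be technical. From 429000 to 486600 this spread also holds the gain of replicate 2 alone, where 191 of 191 unmarked probes were higher in replicate 2.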

Additional observations from a re-analysis of the deposited data

How the results depend on the processing

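No paired analysis was possible because there is 1 group, beyond the pairing of revertant and wild type that each ratio already holds. The difference between the flanks kept its direction under all 14 alternatives for both genes, as a mean of the replicates. At wtf9 it was 0.70 and ranged from 0.29 (without replicate 1) to 1.12 (without replicate 2). In replicate 2 it was -0.04 with flanks of 1.5 kb, -0.05 with 6 kb and 0.02 after loess. At wtf10 it ranged from 1.38 to 1.39 when a replicate was left out. There it was 0.95 after loess, 1.101 with normexp on median signals, 1.33 with the authors' table, 2.27 and 1.37 with flanks of 1.5 and 6 kb, 1.41 and 1.26 with the interval moved 240 bp left and right, 1.44 with means, and 1.46 without repeat-marked probes, an alternative chosen after seeing the data. The causes were not tested. Lower genes numbered 97, but 48 with the authors' table and 61 with medians of probes, and higher genes 115 (80 to 133). The limits are 2 arrays without a dye swap, probes 300 bp apart, and saturation and repeated sequence inside both genes.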
